A study of Mus musculus with 18 samples.

Results

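The Cyp4a genes encode cytochrome P450 enzymes that hydroxylate the far end of fatty acids. They were read out in liver as the 6 members Cyp4a10, Cyp4a12a, Cyp4a12b, Cyp4a14, Cyp4a31 and Cyp4a32, chosen by gene name from a table of 54532 annotated genes. All 6 passed the filter on low values, a mean of at least 1 FPKM (fragments per kilobase of gene length, relative to the size of the library) over 18 mice, which 10216 genes passed. Other Cyp4a genes were not among the members. Cyp4a29 and Cyp4a30b were listed at 0 in every mouse, and of 3 pseudogenes only Cyp4a28-ps had any fragments, 3 in all.

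Omega-hydroxylation adds a hydroxyl group to the terminal carbon of a fatty acid. Alcohol and aldehyde dehydrogenases can then turn it into a dicarboxylic acid, which peroxisomes shorten. The enzymes sit in the membrane of the endoplasmic reticulum and take their electrons from P450 oxidoreductase, with cytochrome b5 as a partner. In rodent liver, Cyp4a10 and Cyp4a14 are textbook targets of PPARα, the nuclear receptor that senses fatty acids, and rise in fasting. Cyp4a12a converts arachidonic acid to 20-HETE, a vasoactive lipid, and is expressed more in males.

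The samples were livers of male C57BL/6J mice, 6 weeks old at the start, in 3 groups of 6. NC mice ate a standard diet and received no SZ-A. HFD mice ate the high-fat diet D12492 for 14 weeks and through a later treatment period in which the HFD control mice were given saline. SZ-A mice were fed like the HFD mice and received SZ-A, the alkaloids of Ramulus Mori (Sangzhi), the mulberry twig, for the later period. That period was 6 weeks by the study's methods but 8 weeks by the sample labels, and the dose and route of SZ-A were not given for the sequenced mice. Mice of all groups were fasted overnight before tissue was taken, so levels are those of fasted livers. Each library was 1 mouse.

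The mouse NC6 carried a high-fat diet among its labels, against its title. It was kept in NC, and the members' fold changes against NC and the ratio of the Cyp4a12 pair are given with and without it. Levels, shares, ranks, medians over lists and correlations include it. At genes called between HFD and the other 5 NC mice, it lay nearer the NC mean at 67.1% (1358 of 2025 genes), the lowest of the NC mice when each was held out in this way (67.1% to 88.6%). Fragments on genes ranged from 17163191 to 20493907 per mouse. A member rested on 163 fragments at the lowest, for Cyp4a12b in HFD4, and on 194282 at the highest, for Cyp4a14 in NC1. The defining genes of hepatocytes were abundant in every library, with Alb between 16117 and 37152 FPKM. Kidney tubule markers, of the other organ rich in Cyp4a enzymes, summed to at most 0.275 FPKM in any mouse and Kap was at 0 in all.

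The 6 genes lie in a cluster on chromosome 4, at chr4:115299046-115621602 of GRCm38, a span of 323 kb. Cyp4a30b and the pseudogene Cyp4a30-ps lie between members. Cyp4a12a (ENSMUSG00000066071) is at chr4:115299046-115332815 and Cyp4a12b (ENSMUSG00000078597) at chr4:115411624-115439034. Cyp4a14 (ENSMUSG00000028715) is at chr4:115486200-115496142 on the minus strand, and the other members are on the plus strand. Cyp4a10 (ENSMUSG00000066072) is at chr4:115518264-115533649, Cyp4a31 (ENSMUSG00000028712) at chr4:115563649-115579015 and Cyp4a32 (ENSMUSG00000063929) at chr4:115600969-115621602. The values were summed over the exons of each gene.

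By coding sequence the members formed a trio, a pair and a single gene. In the trio, Cyp4a10 was 97.2% identical to Cyp4a32 and 96.6% to Cyp4a31. In the pair, Cyp4a12a and Cyp4a12b were 98.5% identical and differed at 23 of 1527 bases. Cyp4a14 was 75.0% to 76.0% identical to each of the others. This is seen in 60 coding bases around the codon of the cysteine that binds the heme iron, found by the amino acid pattern there. The 60 bases are shown from GENCODE M21 (GRCm38) transcripts, 5′ to 3′, because the grouping can be read in them. Capitals mark bases that differ from Cyp4a10.
Cyp4a10: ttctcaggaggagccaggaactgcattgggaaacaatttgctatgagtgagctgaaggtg
Cyp4a31: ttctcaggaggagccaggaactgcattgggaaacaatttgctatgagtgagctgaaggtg
Cyp4a32: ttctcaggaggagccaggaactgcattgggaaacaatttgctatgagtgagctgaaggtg
Cyp4a12a: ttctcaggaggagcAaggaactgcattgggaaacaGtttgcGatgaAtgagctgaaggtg
Cyp4a12b: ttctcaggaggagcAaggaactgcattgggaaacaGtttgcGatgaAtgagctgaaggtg
Cyp4a14: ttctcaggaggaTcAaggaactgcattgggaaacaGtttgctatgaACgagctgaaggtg

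Within the trio and within the pair this stretch is the same. The next sequences show where they can be told apart, as the 60 coding bases with the most differences inside each set. Capitals here mark positions at which members of the set differ. The trio differed at 9 of 60 positions in coding bases 200 to 259, and at 77 of 1530 in all. At most of these 9, Cyp4a10 and Cyp4a31 have the same base and Cyp4a32 another, so the window sets apart mainly Cyp4a32.
Cyp4a10: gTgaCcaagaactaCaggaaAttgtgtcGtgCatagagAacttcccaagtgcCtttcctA
Cyp4a31: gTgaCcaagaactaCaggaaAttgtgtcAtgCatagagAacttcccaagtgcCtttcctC
Cyp4a32: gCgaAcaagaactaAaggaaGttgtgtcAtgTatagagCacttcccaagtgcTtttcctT
The pair differed at 4 of 60 positions at most, here in coding bases 624 to 683.
Cyp4a12a: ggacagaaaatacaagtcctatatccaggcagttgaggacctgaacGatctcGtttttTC
Cyp4a12b: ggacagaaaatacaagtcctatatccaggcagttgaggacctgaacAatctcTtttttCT

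Of all stretches of 100 bases in the whole transcripts, none of Cyp4a14 recurred in another gene. The share was 35.8% for Cyp4a12a and 36.2% for Cyp4a12b, all with each other. It was 12.7% for Cyp4a10, 8.22% for Cyp4a31 and 20.1% for Cyp4a32, all within the trio. How the authors' counting treated fragments that match more than 1 gene is not given in the sources used here. The split between Cyp4a12a and Cyp4a12b is therefore uncertain, as are the values of Cyp4a31 and Cyp4a32 beside the much higher Cyp4a10. Each pair of levels below is read with that limit. Cyp4a32 was counted over 1536 bases of exon, with nearly no untranslated part, against 2109 to 2601 for the other members.

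Cyp4a14 and Cyp4a10 carried nearly all of the family's RNA. Together they made up 96.2% ± 1.29 of the summed FPKM of the members for NC, 95.4% ± 0.978 for HFD and 94.6% ± 2.26 for SZ-A mice (SD, n = 6 each). Cyp4a14 ranked 19 and Cyp4a10 ranked 34 among all genes by mean FPKM in NC livers. The sum of the 6 members was 4939 ± 1454 FPKM for NC, 2112 ± 482 for HFD and 2506 ± 419 for SZ-A mice. It took 0.678% to 1.47% of all FPKM of an NC mouse, 0.353% to 0.764% of an HFD mouse and 0.489% to 0.713% of an SZ-A mouse.

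By mean FPKM over 18 mice the order was Cyp4a14, Cyp4a10, Cyp4a12a, Cyp4a32, Cyp4a12b and Cyp4a31. The step from Cyp4a10 down to Cyp4a12a was 22.2-fold and held in 18 of 18 mice with ranges apart. Cyp4a14 was above Cyp4a10 in 16 of 18 mice with overlapping ranges, a 1.53-fold step. Cyp4a12a was above Cyp4a32 in 14, Cyp4a32 above Cyp4a12b in 17 and Cyp4a12b above Cyp4a31 in 12 of 18 mice, and none of these neighbours had ranges apart over all mice. The last step did not keep its order in HFD livers, where Cyp4a31 had the higher mean and was above Cyp4a12b in 3 of 6 mice.

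**Figure D1:**
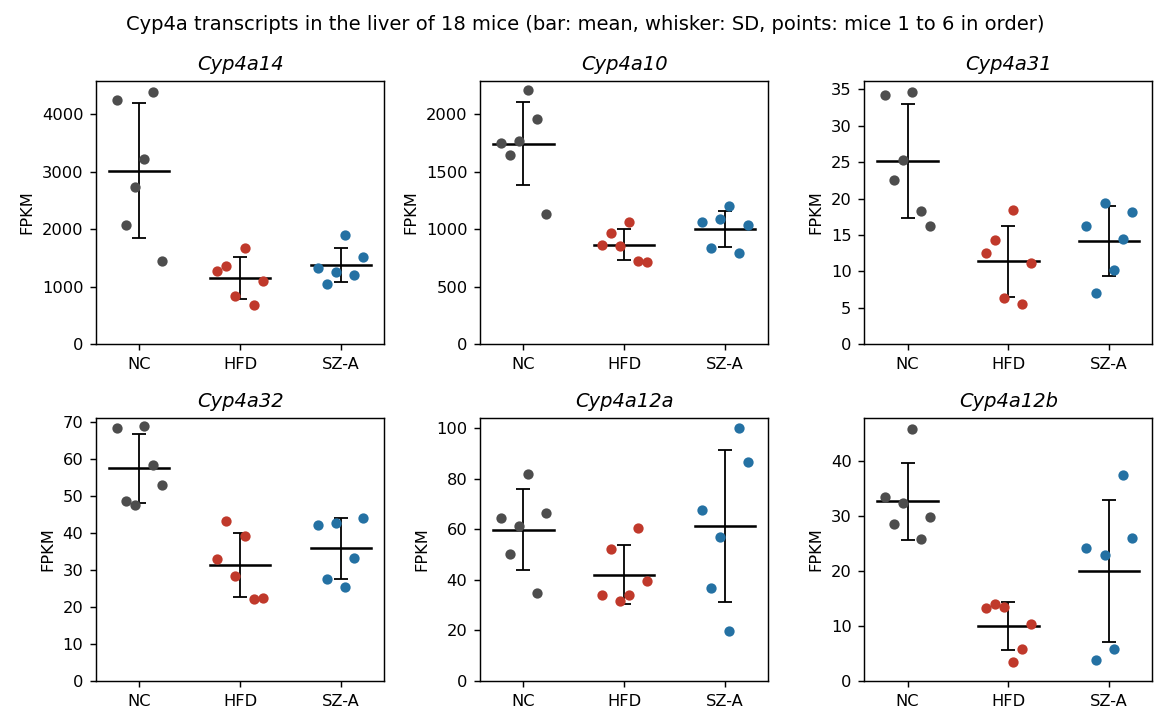
FPKM of each member (linear axes from 0) in the 6 mice of each group, with the mean as a bar and the SD as a whisker. HFD means were below NC means in all 6 panels, while Cyp4a12a and Cyp4a12b spread most widely in SZ-A mice.

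The first comparison asked how the high-fat diet altered the liver. Transcripts of 5 of the 6 members fell, between 1.87-fold for Cyp4a32 and 3.54-fold for Cyp4a12b, and Cyp4a12a did not pass the test. The background was 9.49% of the 10216 genes tested, called lower in HFD, of 20.2% called in either direction. The median log2 fold change was -1.10 over the 6 members and -0.03 over all genes. In whole liver, fewer cells of a type and less RNA per cell cannot be told apart. A gene was called where limma's Benjamini-Hochberg adjusted p on log2(FPKM + 0.1) was under 0.05 and the fold change was over 1.2. This scale understates changes of low genes. The rule for the members used no measured value, but they were chosen with earlier results of these data known.

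Cyp4a14, a lauric acid hydroxylase and the most abundant member, had a lowest, median and highest value of 1444, 2974 and 4390 FPKM in NC mice. In HFD mice these were 680, 1188 and 1664 FPKM. The groups overlapped at 1 NC mouse, NC6, and each of the other NC mice was above every HFD mouse. The log2 fold change was -1.35 (standard error 0.28, limma adjusted p = 0.00512), and every HFD mouse was below the NC mean. It was -1.54 without NC6 (adjusted p = 0.00155).

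Cyp4a10, the second abundant PPARα target, had 1130, 1762 and 2216 FPKM as lowest, median and highest in NC mice. In HFD mice it had 715, 862 and 1066 FPKM. The groups did not overlap, and 4.97% of all genes tested had HFD values wholly below NC values. Its log2 fold change was -1.0 (standard error 0.16, limma adjusted p = 0.000855), a 2.0-fold fall, and -1.12 without NC6.

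Cyp4a31 and Cyp4a32, the close relatives of Cyp4a10, stood far below it in level. Cyp4a31 had a lowest, median and highest of 16.2, 23.9 and 34.7 FPKM in NC and of 5.53, 11.8 and 18.4 in HFD mice. Its groups overlapped, and its log2 fold change was -1.21 (standard error 0.29, limma adjusted p = 0.011). Without NC6 it was -1.32. Cyp4a32 had 47.6, 55.6 and 68.7 FPKM in NC and 22, 30.7 and 43.1 in HFD mice. Its groups stood apart, with a log2 fold change of -0.90 (standard error 0.17, limma adjusted p = 0.00291), and -0.92 without NC6. The log2 ratio of Cyp4a31 to Cyp4a10 in the same mouse was -6.14 ± 0.35 in NC and -6.35 ± 0.54 in HFD mice.

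The pair behaved unequally. Cyp4a12b, the lesser of the pair, had a lowest, median and highest of 25.8, 31.1 and 45.7 FPKM in NC and of 3.42, 11.8 and 13.9 in HFD mice. All HFD mice were below all NC mice, and HFD4 and HFD5 were lowest with 3.42 and 5.88 FPKM. The log2 fold change was -1.83 (standard error 0.31, limma adjusted p = 0.00137), the lowest of the 6 members and among the lowest 0.323% of all genes tested. It was -1.85 without NC6. Cyp4a12a, the 20-HETE-forming enzyme, had 34.6, 62.7 and 81.8 FPKM in NC and 31.7, 36.8 and 60.5 in HFD mice. Its groups overlapped. Its log2 fold change of -0.50 (95% confidence interval -0.95 to -0.05) did not pass (limma adjusted p = 0.103). It was called without HFD5 (adjusted p = 0.0463) and without NC5 (adjusted p = 0.0207), so the call turned on 1 mouse. It was not called without NC6 (-0.46, adjusted p = 0.167).

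**Figure D2:**
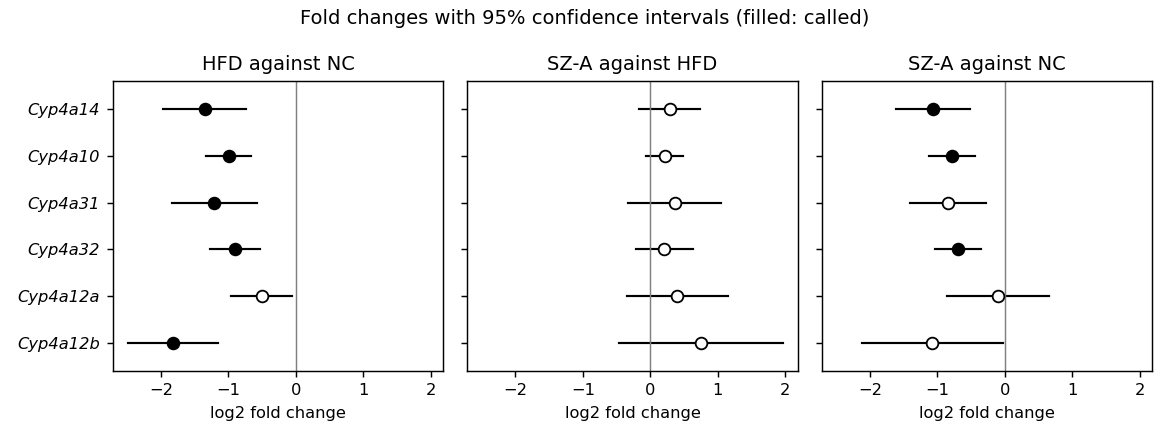
Log2 fold changes of each member on the log2(FPKM + 0.1) scale, with 95% confidence intervals from limma, for the 3 comparisons. Filled points are called genes, 5 in HFD against NC, 0 in SZ-A against HFD and 3 in SZ-A against NC.

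Other values moved with the diet in the same libraries. The 5 hepatocyte markers found, of 6, summed to 37216 to 56585 FPKM for NC, 23734 to 41870 for HFD and 30058 to 53107 for SZ-A mice, with Cps1 at means of 1181, 441 and 547 and Ttr at 3168, 3206 and 3194. The 6 Kupffer cell markers summed to 81.7 to 172 FPKM for NC, 122 to 270 for HFD and 146 to 193 for SZ-A mice. The 6 stellate cell markers summed to 35.1 to 45.8, 43.8 to 66.9 and 44.0 to 59.5 FPKM. The 6 endothelial markers summed to 48.4 to 62.6, 53.3 to 67.4 and 56.6 to 61.8, and the 6 cholangiocyte markers to 10.9 to 39.0, 21.9 to 44.3 and 15.1 to 30.1 FPKM. The 6 adipocyte markers summed to 1.07 to 8.66 FPKM for NC, 20.9 to 136 for HFD and 1.93 to 31.8 for SZ-A mice. Cfd had group means of 2.91, 52.4 and 7.54 FPKM and Adrb3 of 0.833, 0.904 and 1.03, while Adipoq, Plin1, Lep and Retn had group means of at most 0.202 FPKM. The part of these shifts in the members' values was not tested.

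The second comparison asked what SZ-A changed in mice kept on the high-fat diet. No member was called. In limma's test 0.147% of all genes were called, 8 (0.0783%) higher and 7 (0.0685%) lower. Of the 6 members, 0 had an unadjusted p under 0.05, and voom on the recovered fragments also called 0. All 6 log2 fold changes were above 0, from 0.21 to 0.75, with a median of 0.33 over the members and 0.03 over all genes. A missed threshold does not show equal levels, and the 95% confidence intervals give the sizes that remain possible.

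Cyp4a10 had a lowest, median and highest of 793, 1049 and 1206 FPKM in SZ-A mice, across most of the HFD range. Its log2 difference, SZ-A minus HFD, was 0.21 with a 95% confidence interval of -0.07 to 0.49 (limma adjusted p = 0.48). Cyp4a14 had 1051, 1288 and 1891 FPKM in SZ-A mice and a log2 difference of 0.29 (interval -0.16 to 0.74, limma adjusted p = 0.558), which ran from 0.15 without HFD5 to 0.41 without HFD4. For these 2 abundant genes the upper bounds lay below the size of the estimated fall from NC to HFD. That fall had its own 95% confidence interval, -1.33 to -0.66 for Cyp4a10 and -1.96 to -0.735 for Cyp4a14. The 2 comparisons share the HFD mice, so these bounds do not test a return to the NC level.

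Cyp4a31 had 7.03, 15.3 and 19.4 FPKM in SZ-A mice, and a log2 difference of 0.36 (interval -0.32 to 1.05, limma adjusted p = 0.638). Cyp4a32 had 25.4, 37.5 and 44.1 FPKM and a log2 difference of 0.21 (interval -0.22 to 0.63, limma adjusted p = 0.668). Both overlapped the HFD mice over nearly their whole range.

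The Cyp4a12 pair spread most in SZ-A mice. Cyp4a12b was 24.2, 3.81, 22.9, 5.84, 37.5 and 25.9 FPKM in SZ-A1 to SZ-A6. So 4 mice were above all HFD mice and SZ-A2 and SZ-A4 lay among the lowest HFD mice, an up to 9.84-fold range. Its log2 difference of 0.75 had an interval of -0.46 to 1.97 (limma adjusted p = 0.573). Cyp4a12a was 67.7, 36.8, 56.9, 19.6, 100 and 86.6 FPKM in the same mice. SZ-A4 was below every other mouse of the study and SZ-A5 above. Its log2 difference of 0.40 had an interval of -0.35 to 1.15 (limma adjusted p = 0.634). SZ-A2 was the lowest or next to lowest SZ-A mouse for all 6 members. SZ-A4 was so for the Cyp4a12 pair, Cyp4a31 and Cyp4a32, but had the highest Cyp4a10 and Cyp4a14 of its group, 1206 and 1891 FPKM. Single mice moved these 2 differences widely with no call. That of Cyp4a12b ran from 0.48 without HFD4 to 1.14 without SZ-A2 (limma adjusted p = 0.25), and that of Cyp4a12a from 0.22 without SZ-A5 to 0.69 without SZ-A4 (limma adjusted p = 0.308). Without those SZ-A mice both passed 0.05 before adjustment only.

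**Figure D3:**
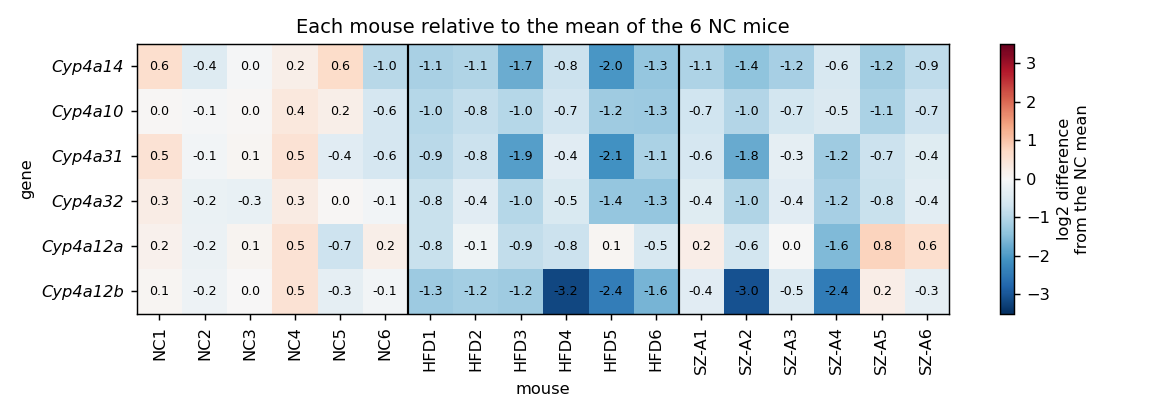
Each cell is log2(FPKM + 0.1) of a member in a mouse minus the mean of the 6 NC mice. Cyp4a12b is 3.2 below that mean in HFD4, 3.0 below in SZ-A2 and 2.4 below in HFD5 and SZ-A4, while Cyp4a14 and Cyp4a10 are lower in every HFD and SZ-A mouse by smaller and more even amounts.

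The third comparison set SZ-A mice against NC mice, to ask how far treated livers stood from those on the standard diet. It shares its NC mice with the first comparison and its SZ-A mice with the second. Transcripts of 3 of 6 members were called lower, beside 4.3% of all genes tested called lower, 5.31% called higher and 9.6% in all. The median log2 fold change was -0.81 over the members and -0.01 over all genes. Cyp4a10 stood at -0.79 (standard error 0.16, limma adjusted p = 0.00893), Cyp4a14 at -1.06 (standard error 0.25, limma adjusted p = 0.0196) and Cyp4a32 at -0.70 (standard error 0.16, limma adjusted p = 0.0151). Without NC6 they were -0.91, -1.25 and -0.72, all called. Every SZ-A mouse was below the NC mean for these 3 genes and for Cyp4a31. Cyp4a32 was the 1 member with groups apart, beside 2.67% of all genes tested.

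Cyp4a31 had a log2 fold change of -0.84 and missed the threshold (limma adjusted p = 0.0584). It was called without NC5 (adjusted p = 0.0486) and without NC6 (adjusted p = 0.0412), so the call turned on single NC mice. Without NC6, Cyp4a12b was -1.10 and Cyp4a12a -0.06, and neither was called. Cyp4a12b had a log2 fold change of -1.07 with an interval of -2.12 to -0.03 (limma adjusted p = 0.185), and 5 of 6 SZ-A mice were below the NC mean. Cyp4a12a had group means of 61.3 ± 30.1 and 59.8 ± 16.0 FPKM (SD, n = 6 each), with a log2 difference of -0.10 (interval -0.86 to 0.65, limma adjusted p = 0.893). With no filter on low values, which tested 27266 genes, Cyp4a10 alone of the members was called, while Cyp4a14 and Cyp4a32 had adjusted p of 0.0947 and 0.0564.

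Cyp4a12b stood lower relative to Cyp4a12a in every HFD and SZ-A mouse than in any NC mouse. The log2 ratio of Cyp4a12b to Cyp4a12a, a difference within a mouse, averaged -0.85 ± 0.24 over NC mice, -2.17 ± 0.93 over HFD mice and -1.82 ± 0.72 over SZ-A mice (SD over 6 mice). Its highest value was -1.22 in HFD and -1.31 in SZ-A mice, and its lowest in NC was -1.16. The ratio differed between HFD and NC by -1.32 and between SZ-A and NC by -0.97, each with a 2-sided exact permutation p = 0.00216, the smallest that 6 against 6 mice can give. These were 2 of 12 tests on 4 ratios chosen after the values were seen, and the adjusted p was 0.013 for both. Without NC6 the differences were -1.38 and -1.03. SZ-A and HFD differed by 0.35 (exact p = 0.431). The ratios of Cyp4a14, Cyp4a31 and Cyp4a12a to Cyp4a10 gave 0 of 9 exact permutation tests under an adjusted p of 0.05. Since 36.2% of the 100-base stretches of Cyp4a12b recur in Cyp4a12a, as in the sequences shown above, the share of fragments that the pair could not tell apart bears on the size of this ratio and was not tested.

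**Figure D4:**
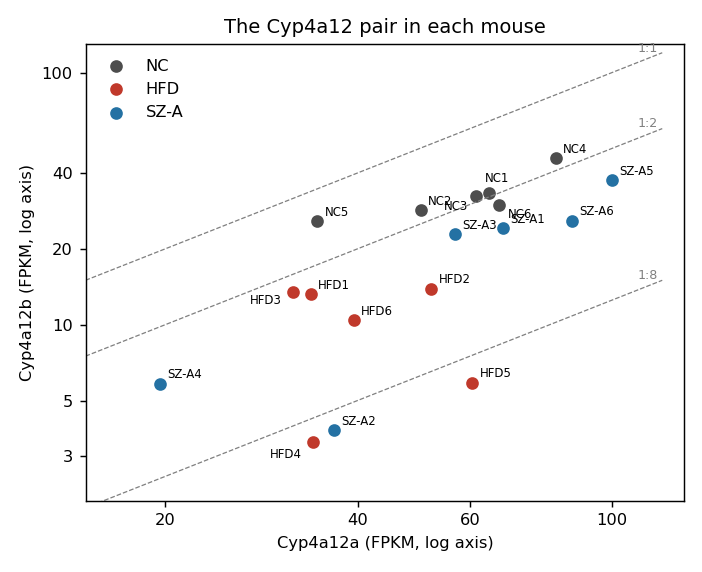
Cyp4a12b against Cyp4a12a in FPKM in each of the 18 mice on log axes, with dashed lines at equal ratios. The NC mice lie near or above the 1:2 line and all HFD and SZ-A mice below it, with HFD4, SZ-A2 and HFD5 nearest or under the 1:8 line.

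Over the deviations of 18 mice from their group means, on the log2 scale, Pearson's r was 0.774 between Cyp4a10 and Cyp4a14, 0.763 between Cyp4a31 and Cyp4a32 and 0.653 between Cyp4a12a and Cyp4a12b. It was 0.34 to 0.60 between Cyp4a31 or Cyp4a32 and each of the other 4 members. Between Cyp4a10 or Cyp4a14 and either gene of the Cyp4a12 pair it was -0.30 to -0.04. These are descriptions, and the points share libraries and, in the trio and pair, sequence. Within single groups of 6 mice, 45 relations were computed, and 0 passed an adjusted p of 0.05 by Pearson's r, by Spearman's rho or with a pseudocount of 1, against 7 with an unadjusted exact permutation p under 0.05. The highest was Cyp4a14 with Cyp4a31 in HFD mice, with r = 0.991 (exact permutation p = 0.00139, adjusted 0.062) and rho = 1.0 (exact permutation p = 0.00278, adjusted 0.125). It was r = 0.99 without the 2 mice farthest from the median, and no 100-base stretch of Cyp4a14 recurs in Cyp4a31.

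The genes most like each member were found by the same r over 18 mice, outside the family and with no test. For Cyp4a10 they were Retsat (0.798), a retinol saturase, Hadhb (0.795), a subunit of the mitochondrial trifunctional protein of fatty acid oxidation, and Ech1 (0.781), an enzyme that handles double bonds of fatty acids. For Cyp4a14 they were Psma7 (0.782), a proteasome subunit, Gm7336 (0.774) and Treh (0.771), a trehalase. For Cyp4a31 they were Mknk2 (0.801), Esyt1 (0.785) and Hsd17b11 (0.774), and for Cyp4a32 Ube4b (0.801), Tmem150a (0.799) and Slc22a3 (0.746). For Cyp4a12a they were Axin1 (0.747), Dnaja4 (0.738) and Gm10651 (0.734).

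For Cyp4a12b they were Cnppd1 (0.902), Mup15 (0.838), a major urinary protein, and Serpina1e (0.819), a protease inhibitor of the male-biased list. Serpina1e had a lowest, median and highest mouse of 1690, 2269 and 2524 FPKM in NC and of 145, 409 and 1665 in HFD, and the lowest HFD mouse was HFD4, as for Cyp4a12b. In SZ-A mice, SZ-A2 and SZ-A4 had 492 and 839 FPKM and the other 4 had 1911 to 3773. Mup15 was 1.2 and 3.94 FPKM in SZ-A2 and SZ-A4 and at least 88.7 in the other SZ-A mice. In NC it ran from 43.9 to 743 FPKM, with 127 in NC4, the NC mouse with the highest Cyp4a12b. Because these genes were picked by r over the same mice, low mice in common with Cyp4a12b are no separate result. Mup15 and Serpina1e each belong to families of near-identical genes, so their values are uncertain in the same way as those of the pair.

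The genes that work with or beside the members did not move as a block. Among the 32 PPARα targets outside the family, 9 were called lower and 3 higher in HFD than in NC by limma, beside 9.49% of all genes called lower and 10.7% called higher, with a median log2 fold change of -0.18. Those with the largest changes were Mogat1, a monoacylglycerol acyltransferase, at 2.21 (5.57 ± 2.06 against 1.09 ± 0.216 FPKM, adjusted p = 4.1e-05), Cd36, a fatty acid uptake receptor, at 2.06 (96.5 ± 16.4 against 24.6 ± 9.95, adjusted p = 0.000163) and Ehhadh at -1.15 (374 ± 145 against 814 ± 263, adjusted p = 0.00997). Ehhadh, the peroxisomal bifunctional enzyme, fell beside Cyp4a10 and Cyp4a14, and the difference in size was not tested. The same 2 genes, Mogat1 and Cd36, were the targets called between SZ-A and HFD, both lower in SZ-A mice at -1.77 and -1.21. The share of all genes called lower there was 0.0685%. Against NC, SZ-A mice had 5 targets lower and 1 higher, beside 4.3% and 5.31% of all genes. These targets were led by Cidec at -1.76, Pdk4 at -1.58 and Ehhadh at -1.28.

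The list of PPAR regulators held the PPARs, their partners and other nuclear receptors, such as Nr1i3. Of its 14 genes tested, 2 were called higher in HFD than in NC and 0 lower, beside 10.7% and 9.49% of all genes. They were Pparg (log2 fold change 0.80) and Nr1i3 (0.38). Nr1i3 alone of the 14 was called between SZ-A and NC (0.69), beside 5.31% of all genes called higher. None of the 14 was called between SZ-A and HFD. Ppara, named after its value was seen because it encodes PPARα, had 48.0 ± 18 FPKM for NC, 52.0 ± 6.78 for HFD and 52.2 ± 11.7 for SZ-A mice and was called in no comparison. Its log2 difference between HFD and NC was 0.26 with a standard error of 0.31.

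**Figure D5:**
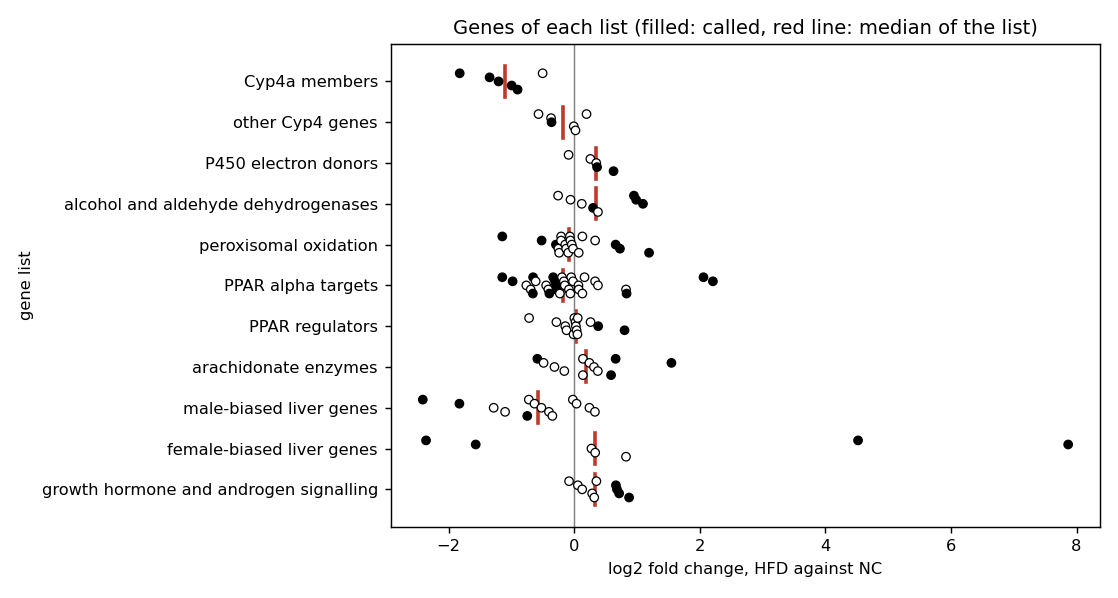
Log2 fold changes of HFD against NC for the tested genes of each list, with called genes filled and the median of a list as a red line. The Cyp4a members lie between -1.83 and -0.50, while every other list has genes on both sides of 0.

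Along the route of the fatty acid, genes listed as P450 electron donors came first, and whether each serves the members was not tested. Of these 5 genes, Cyb5b and Cyb5a, both cytochromes b5, were called higher in HFD than in NC at log2 fold changes of 0.63 and 0.36. In the comparisons with SZ-A, 0 were called. Por, the oxidoreductase, named after its value was seen, had means of 179, 162 and 179 FPKM in NC, HFD and SZ-A mice. The list of alcohol and aldehyde dehydrogenases held 8 genes, and whether each acts on the hydroxylated product was not tested. Of these, 4 were called higher in HFD and 0 lower, led by Adh1 at 1.09, Aldh1a1 at 0.99 and Adh4 at 0.95. Adh4 (1.18) and Adh1 (1.08) were also higher in SZ-A than in NC mice. Over all genes tested, 10.7% were called higher in HFD than in NC and 5.31% higher in SZ-A than in NC. All 4 dehydrogenases called in HFD livers stood on the other side of 0 from the 5 members called.

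Of 20 peroxisomal oxidation genes, 3 were called higher and 3 lower in HFD than in NC, beside 10.7% and 9.49% of all genes tested. The largest changes were in Nudt7, a coenzyme A hydrolase, at 1.19, in Ehhadh, and in Abcd2, a transporter of very long fatty acids, at 0.73. In SZ-A against NC, 2 were higher and 2 lower, beside 5.31% and 4.3% of all genes. Nudt7 (1.5) was among the higher and Ehhadh among the lower. None of the 20 was called between SZ-A and HFD. Of 6 other Cyp4 genes tested, Cyp4f13 was called lower in HFD (-0.36), Cyp4f17 (-0.67) and Cyp4b1 (-0.35) lower in SZ-A than in NC mice, and 0 higher in any comparison.

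Of 12 tested genes listed as arachidonate enzymes, 3 were called higher and 1 lower in HFD than in NC. Over all genes tested the shares were 10.7% and 9.49%. The list holds Cyp2c genes, Cyp2c70 among them, and whether each acts on arachidonate was not tested. The called genes were led by Cyp2c70 (1.55), Cyp2c38 (0.66) and Ephx2 (-0.59), the soluble epoxide hydrolase. In SZ-A against NC, Cyp2c70 (1.70) and Cyp2j6 (0.64) were higher and Cyp2c39 (-1.0) lower, and none was called against HFD. There, 5.31% of all genes were called higher and 4.3% lower in SZ-A than in NC.

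Sex-biased genes were listed because the Cyp4a12 pair is male-biased. The counts stand beside 9.49% of all genes called lower and 10.7% called higher in HFD than in NC. For SZ-A against NC these shares were 4.3% and 5.31%. Of 14 male-biased liver genes, 3 were called lower in HFD than in NC and 0 higher, namely Serpina1e at -2.41, Elovl3 at -1.83 and Cyp2d9 at -0.75. The median of the list was -0.58. In SZ-A against NC, Elovl3 (-1.61) was lower and Hsd3b5 (3.92) higher, and none was called against HFD, where the median was 0.72. Of 7 female-biased genes tested, 2 were higher and 2 lower in HFD, led by Cyp2b9, with 88.2 ± 57.2 FPKM against 0.28 ± 0.311, by Cyp2b13 and by Cyp2c40 (-2.36). In SZ-A mice, Cyp2b9 was called higher than in NC (43.1 ± 34.0 FPKM), and none was called against HFD. Of 10 growth hormone and androgen signalling genes, 4 were higher in HFD, led by Socs3 (0.87), Igfals (0.72) and Stat5a (0.68). In SZ-A against NC, Socs3 (1.11) and Igfals (0.82) were higher, and none was called against HFD.

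The scaling of the deposited values bears on all of these counts. The library size behind the FPKM was the fragment total times 0.998 to 1.14 in HFD mice and 0.933 to 1.02 in NC mice. Rescaled to a common sum per mouse, the median of all genes moved from -0.03 to 0.16 in HFD against NC, and calls split into 2128 higher and 334 lower in place of 1092 and 970. The same 5 members were called lower, with log2 fold changes from -1.63 to -0.71. In SZ-A against HFD the median of all genes moved from 0.03 to -0.15 and the split from 8 higher and 7 lower to 10 and 208, and the members stood at 0.03 to 0.57 with 0 called.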

How the data were processed

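Liver RNA of 18 mice was purified with poly-T beads, sequenced as paired-end reads on a NovaSeq and aligned to GRCm38 with HISAT2 2.0.5 by the authors, and featureCounts 1.5.0-p3 is named in the submitters' processing notes. The authors deposited FPKM per gene with gene length and position. Groups and replicate numbers came from the sample titles. FPKM times length gave whole fragments for all values within 0.05 of a fragment, and these set the depth. No pair of mice in a group agreed within counting error.

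Each comparison was fitted on its own 2 groups with limma 3.58.1 in R 4.3.3 (lmFit, eBayes with trend) on log2(FPKM + 0.1) for the 10216 genes with a mean of at least 1 FPKM, after the script was tested on simulated data. P-values were adjusted by Benjamini-Hochberg over all genes tested, and a call needed both a fold change over 1.2 and an adjusted p below 0.05. The authors' DESeq2 test was not repeated, so call counts need not equal theirs. The main test used the deposited unit, FPKM, and voom on the recovered fragments was an alternative. Within-group correlations and ratios used 2-sided exact permutation tests, and the p-values given for single genes are those of limma. The members and the gene lists were chosen with earlier results of these data known. Named list genes are, per list and comparison, the called genes, at most 3 with the largest change, and named similar genes are the 3 with the highest r to each member. A gene that this rule covers is not reported here.

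Coding sequences were joined from GENCODE M21 exons and aligned with mafft 7.526. Alternatives were pseudocounts of 1 and 0.01, no filter or a mean of at least 5 FPKM, FPKM rescaled to a common sum, median-ratio scaling, all 18 mice in one fit, eBayes without trend or with the robust option, sample weights, a replicate block, voom on the recovered fragments, no fold threshold or a fold over 2, and each mouse left out. Other steps used Python 3.11.15, pandas 2.3.3, numpy 2.4.6, scipy 1.17.1 and matplotlib 3.10.9. P-values measure the spread between mice, which includes counting error.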

Additional observations from a re-analysis of the deposited data

How the results depend on the processing

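In HFD against NC, the number of members called lower was 5 and stayed at 5 or 6 under every alternative except a fold change over 2, which left 3 (Cyp4a12b, Cyp4a14 and Cyp4a31). In SZ-A against NC it was 3, against 1 with a fold change over 2 and 1 with no filter on low values, which tests more genes. With sample weights, Cyp4a12a was also called in the first comparison (adjusted p = 0.0103) and Cyp4a31 in SZ-A against NC (adjusted p = 0.0426), and Cyp4a31 was called there with a mean of at least 5 FPKM too (adjusted p = 0.0486). In SZ-A against HFD, 0 members were called under all 27 alternatives, with log2 fold changes above 0 in each. As each mouse was left out, those of Cyp4a10 ranged from 0.16 to 0.28, of Cyp4a31 from 0.18 to 0.55 and of Cyp4a32 from 0.11 to 0.31. The log2 difference of Cyp4a12a between SZ-A and NC ranged from -0.28 to 0.19 as each mouse was left out, turning above 0 without SZ-A2 (0.0048) and without SZ-A4 (0.186). The call counts over all genes moved by more than 1.5 times in SZ-A against HFD, from 15 to 0 with no filter, 233 with sample weights, 218 with FPKM rescaled, 68 with voom on plain totals, 35 with all 18 mice in one fit, 26 with a mean of at least 5 FPKM, 26 with voom on median-ratio sizes and 2 to 49 as each mouse was left out. In SZ-A against NC they moved from 981 to 564 with no filter, 1682 with sample weights, 601 without SZ-A3 and 629 without SZ-A6. In HFD against NC they moved from 2062 of 10216 genes tested to 1271 of 5183 with a mean of at least 5 FPKM. The filters change the number of genes tested, which was 27266 with no filter. A fold change over 2 left 371, 7 and 205.

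With the replicate number as a block, 5 members were called in HFD against NC, 0 in SZ-A against HFD and 3 in SZ-A against NC, as without it. Over all genes the block called 1647, 0 and 922. Deviations of mice with equal numbers correlated at -0.12 to 0.29. No correlations of unequal numbers were set beside these, so pairing by number was not tested.

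The relation of Cyp4a12b to Cyp4a31 in SZ-A mice, with r = 0.894, rests on 2 mice, and without the 2 farthest from the median r was -0.84. As each mouse was left out, the log2 ratio of Cyp4a14 to Cyp4a10 in SZ-A against HFD ranged from -0.014 to 0.133, that of Cyp4a31 to Cyp4a10 in SZ-A against NC from -0.175 to 0.079 and that of Cyp4a12a to Cyp4a10 in SZ-A against HFD from -0.055 to 0.535, so none of the 3 kept a sign. The ratio of Cyp4a12a to Cyp4a10 passed an unadjusted exact p under 0.05 without NC6 in HFD against NC (0.654) and without SZ-A4 in SZ-A against NC (1.03).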
